A study of Mus musculus with 6 samples.

Results

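Histone lysine methyltransferases and demethylases are the enzymes that write and erase methyl groups on histone tails. Their members were taken by gene symbol: KDM, KMT, SETD, SMYD, NSD, EHMT, SUV39H, SUV420H and PRDM genes followed by a digit, with Ash1l, Dot1l, Jmjd6 and the older names of NSD genes. Of the 37620 gene rows, 65 matched. The Y-linked Kdm5d and Uty were left out, and 62 members are described here. They comprise 61 protein-coding genes and Kdm6bos, a transcript antisense to Kdm6b that the naming pattern also takes. RNA came from sorted bone marrow GMPs (granulocyte-macrophage progenitors), the precursors of granulocytes and monocytes, of C57BL/6 mice; the gate was Lineage-, c-Kit+, Sca1- and CD34+ with a stain for Fc receptors. The 3 knockout-labelled libraries were from Mx1-Cre Bap1 f/f mice, and the 3 control libraries from Bap1 f/f littermates without Cre. The labels put the age of both groups at 65 days and the polyI:polyC injections, given to both, at 42 days; the design text dates the injections earlier. The Mx1 promoter answers to interferon in many cell types, not in GMPs alone, and only knockout-labelled mice carried Cre, so effects of Cre and of losing Bap1 cannot be told apart.

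Methylation of histone lysines marks chromatin by position. Methyl groups on H3K4 are found at active promoters and enhancers, and those on H3K36 and H3K79 along transcribed genes. Silent chromatin carries methyl groups on H3K9 and trimethylated H4K20. Most of the writers carry a SET domain, except DOT1L, and most of the erasers carry an iron-dependent JmjC domain, except the flavin-dependent LSD enzymes. In blood formation, KMT2A, the MLL1 protein, sustains HOX expression and is broken by leukaemia translocations, DOT1L is recruited by its fusions, and LSD1 works with the repressor GFI1 in granulocyte development. BAP1, the deleted gene product, removes ubiquitin from histone H2A.

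Libraries held 19.5 to 24.1 M gene reads in the knockout-labelled group and 24.1 to 25.9 M in the control group. Bap1 itself went against the labels, with normalized counts (reads divided by 1 size factor per library) of 2671, 3309 and 2968 in knockout-labelled libraries, against 1343, 998.5 and 1076 in control libraries (limma adjusted p = 6.07e-05). Because reads from undeleted exons are counted too, this value is no check of the deletion. All directions given here are those of libraries labelled knockout. Both groups expressed the granule protein genes Mpo, Elane, Prtn3 and Ctsg of GMPs. Of 8 GMP genes, 4 were higher (Elane, Ctsg, Cebpe and the gate gene Kit, limma adjusted p = 0.0263, 0.00153, 0.00914 and 0.0214) and 2 lower (the gate genes Cd34 and Fcgr3, limma adjusted p = 5.04e-06 and 0.00198), while Mpo and Prtn3 were not called. Markers of other cells moved with the groups. The summed normalized count of 6 dendritic cell markers was 2384 to 4217 in knockout-labelled and 10702 to 19822 in control libraries, with 5 of 6 lower and none at 0 in a whole group. That of 8 B lymphoid markers was 1103 to 1425 in knockout-labelled and 2197 to 2624 in control libraries, with 7 of 7 tested lower and Pax5 and Vpreb3 at 0 in the knockout-labelled group. The 5 mast cell, basophil and eosinophil markers summed to 14820 to 23321 in knockout-labelled and 46574 to 56881 in control libraries (4 lower, 1 higher), and the 5 erythroid markers to 1945 to 4591 in knockout-labelled and 827 to 1268 in control libraries (3 higher). The 7 T and NK cell genes, led by the granule gene Nkg7, summed to 36475 to 56039 in knockout-labelled and 28418 to 30577 in control libraries (1 higher and 4 lower of 5 tested). The 5 megakaryocyte genes summed to 1234 to 3144 in knockout-labelled and 2077 to 3496 in control libraries (2 lower), and the 4 stem cell genes to 191 to 293 in knockout-labelled and 585 to 703 in control libraries (2 lower: Hoxa9, which made up most of the control sums, and Procr, at 0 in the knockout-labelled group), while Hlf and Slamf1 were not called. Of 6 monocyte markers 5 were lower, with overlapping sums of 50225 to 102726 in knockout-labelled and 77213 to 88066 in control libraries, and 7 cell cycle genes summed to 40537 to 46655 in knockout-labelled and 49407 to 52379 in control libraries, with 1 lower. The part of these shifts in the results below was not tested. In bulk RNA, fewer cells that express a gene and less RNA per cell cannot be told apart.

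Most of the family held close to control levels in the libraries labelled knockout, and the exceptions went in both directions. Of the 62 members, 53 had a mean normalized count of at least 10 and were tested. Kdm4a, Kmt5c, Prdm11, Prdm16 and Setd6 rose, and Kmt2a, Setd4, Setd7 and Smyd4 fell. These 9 calls are 17.0% of the tested members, while 26.8% of all 14391 tested genes were called by the same limma test at a Benjamini-Hochberg adjusted p of 0.05. The 5 higher members are 9.43% of those tested (11.8% among all genes), and the 4 lower ones 7.55% (15.0% among all genes). The median absolute log2 fold change was 0.20 for the members and 0.38 for all genes tested. Signed, the median was -0.07 for members and 0.01 for all genes, with 35 members below 0 and 18 above. For 21 members the 95% interval of the difference lay within 1.5-fold in both directions, while for the other uncalled ones a larger difference was within the interval. Knockout-labelled and control libraries did not overlap for 17 members, or for 42.9% of all tested genes, and 8 of these 17 members were not called. After correction for GC content and transcript length, some estimates near 0 changed sign, among them those of Kmt2c and Nsd1. The split of calls became 7 higher and 3 lower. Over all genes the split moved as well, from 1695 higher and 2163 lower to 2020 higher and 2237 lower.

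Levels are compared between genes as normalized counts per kilobase of annotated exon. Suv39h1, the H3K9 methyltransferase of constitutive heterochromatin, was highest, at 863 ± 14.0 per kb in knockout-labelled and 834 ± 18.8 per kb in control libraries (SD, n = 3 each). Smyd2, which methylates p53 among other proteins, was next by control level, at 588 ± 16.5 per kb in knockout-labelled and 488 ± 82.6 per kb in control libraries, and Kmt2e, a reader of H3K4 methylation, at 470 ± 46.5 per kb in knockout-labelled and 449 ± 20.4 per kb in control libraries. In the control group the mean of Kmt2e lay within 1 SD of that of Smyd2. Suv39h1 shares 14.55% of its exon length with the opposite-strand gene Gm14820, and Kmt2e 9.31% with the opposite-strand gene Srpk2. Control levels of the other tested members ran down to 1.80 ± 1.07 per kb for Prdm11. The median control level was 12.6 per kb for the 5 members that rose, 40.2 per kb for the 4 that fell and 54.5 per kb for the 44 not called. Unlike Suv39h1, its paralogue Suv39h2 stood at 43.9 ± 6.10 per kb in knockout-labelled and 48.3 ± 8.35 per kb in control libraries.

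**Figure D1:**
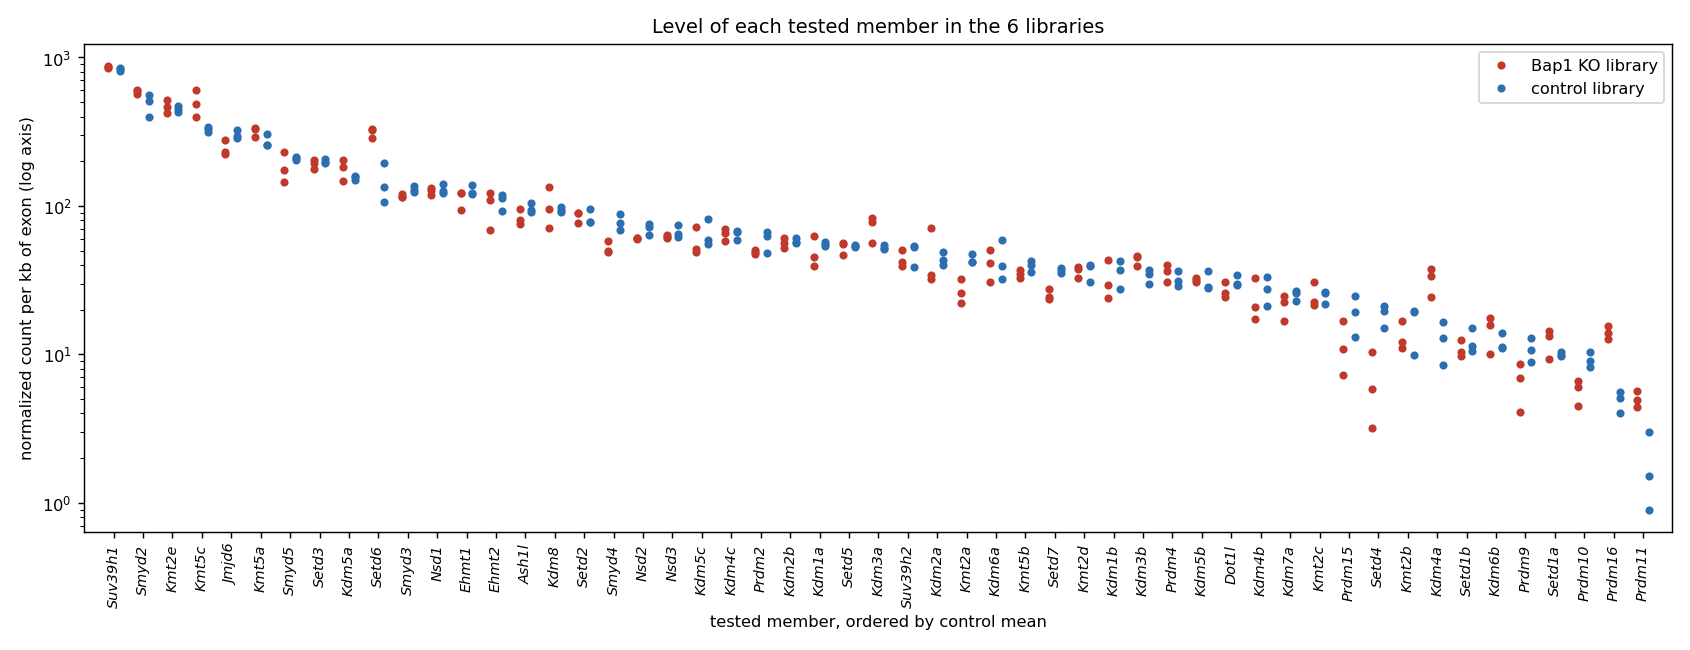
Normalized count per kb of annotated exon (log axis) of the 53 tested members in each knockout-labelled library (left dots) and control library (right dots), ordered by control mean. Suv39h1 is highest in both groups, and the groups stand clearly apart at Setd6, Setd4, Kdm4a, Prdm16 and Prdm11.

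The promoters of 4 members that changed are shown because they carry the main calls: the 3 members called under every alternative setting, and Kmt2a. They are RefSeq sequences of GRCm38.p6, 250 bases before to 50 after a gene start, on the gene's strand, with CpG dinucleotides in capitals.
Prdm16, chr4:154636824-154637123, minus strand: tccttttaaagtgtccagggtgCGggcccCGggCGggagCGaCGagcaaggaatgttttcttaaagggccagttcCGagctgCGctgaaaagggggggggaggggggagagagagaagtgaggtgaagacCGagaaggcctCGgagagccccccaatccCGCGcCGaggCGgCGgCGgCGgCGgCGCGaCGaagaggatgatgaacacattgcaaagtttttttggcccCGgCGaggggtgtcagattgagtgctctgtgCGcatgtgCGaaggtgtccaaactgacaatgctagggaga
Kdm4a, chr4:118179994-118180293, minus strand: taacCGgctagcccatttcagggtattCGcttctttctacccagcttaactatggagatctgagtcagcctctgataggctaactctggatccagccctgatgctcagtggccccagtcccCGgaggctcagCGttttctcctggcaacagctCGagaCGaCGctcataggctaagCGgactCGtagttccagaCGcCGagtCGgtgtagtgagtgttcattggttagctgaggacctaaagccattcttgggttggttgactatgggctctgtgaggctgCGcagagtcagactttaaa
Setd6, chr8:95715663-95715962, plus strand: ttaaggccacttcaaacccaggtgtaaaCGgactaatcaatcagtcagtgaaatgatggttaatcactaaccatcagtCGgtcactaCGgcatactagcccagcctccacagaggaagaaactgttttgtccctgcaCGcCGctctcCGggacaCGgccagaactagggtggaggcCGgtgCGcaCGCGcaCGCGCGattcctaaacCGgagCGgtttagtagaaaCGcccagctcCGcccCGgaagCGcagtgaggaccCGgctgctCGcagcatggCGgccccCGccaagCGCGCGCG
Kmt2a, chr9:44881240-44881539, minus strand: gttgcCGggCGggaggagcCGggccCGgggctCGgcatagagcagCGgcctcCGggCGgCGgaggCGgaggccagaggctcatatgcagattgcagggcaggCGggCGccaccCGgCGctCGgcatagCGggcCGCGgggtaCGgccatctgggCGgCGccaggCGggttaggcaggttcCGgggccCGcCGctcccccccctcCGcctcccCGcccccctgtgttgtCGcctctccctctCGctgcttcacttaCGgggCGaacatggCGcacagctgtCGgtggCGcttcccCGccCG
The Kmt2a window is the densest of the 4 in CpG, the sequence that the CXXC domains of KMT2A, KMT2B, KDM2A and KDM2B bind when unmethylated. It holds 36 CpG, that of Setd6 28, that of Prdm16 24 and that of Kdm4a 13, and the median of all 32851 promoters in the table is 7. The 9 called members with a promoter in the table held 13 to 36 CpG each, and the median over 61 promoters of 45 members was 27. Motifs were searched on both strands, and no matches to different motifs overlapped in the member promoters. Median GC content was 63.7% over the member promoters and 52.7% over all promoters. The part of this difference in the motif shares was not tested, and some members have several promoters among the 61. The YY1 motif AAGATGG was in 8 of the 61 member promoters (13.1%, and 6.34% of all promoters), among called members in Prdm11 alone. The ETS motif CCGGAAG was in 9 (14.8%, and 8.86% of all), among called members in Setd4 and Setd6. The E2F motif TTCCCGC was in 6 (9.84%, and 4.60% of all), among called members in Kmt5c alone, and the forkhead motif GTAAACA in 2 (3.28%, and 3.65% of all), none of them a called member.

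Of 8 members grouped as H3K4 methylation writers, 0 rose and 2 fell, while 11.8% of all tested genes were higher and 15.0% lower. Those that fell were Kmt2a and Setd7. Kmt2e, described above as a reader, was counted among the 8 (log2 fold change 0.06, limma adjusted p = 0.717). Kmt2a (ENSMUSG00000002028, chromosome 9) had normalized counts of 367, 535 and 432 in knockout-labelled libraries, against 695, 699 and 785 in control libraries. Every knockout-labelled library lay below every control library (log2 fold change -0.72, SE 0.17, limma adjusted p = 0.0103), but leaving out control replicate 3 ended the call (limma adjusted p = 0.0535). Of the classic KMT2A targets, Hoxa9, also among the stem cell genes above, had 43.7, 76.0 and 121 normalized counts in knockout-labelled and 502, 496 and 399 in control libraries (limma adjusted p = 0.000199), and Hoxa7 had 49.1, 22.9 and 91.4 in knockout-labelled and 243, 224 and 207 in control libraries (limma adjusted p = 0.00265). Meis1, another of these targets, had 697, 407 and 981 in knockout-labelled and 763, 658 and 693 in control libraries and was not called. A link between the level of Kmt2a and those of Hoxa9 and Hoxa7 was not tested. Setd7, which monomethylates H3K4 and many proteins that are not histones, had 264, 298 and 255 normalized counts in knockout-labelled and 403, 381 and 410 in control libraries. The groups again did not overlap, at -0.55 on the log2 scale (SE 0.17, limma adjusted p = 0.0365). This call was narrow: it ended when control replicate 1, 2 or 3 (limma adjusted p = 0.106, 0.0902 and 0.126) or knockout replicate 1 or 3 (0.0537 and 0.0698) was left out, and under a correction for GC content and length (0.0622). The other MLL-family and SET1 enzymes did not pass. Kmt2d, the main H3K4 monomethyltransferase of enhancers, averaged 724 ± 60.4 in knockout-labelled and 729 ± 98.0 normalized counts in control libraries (95% interval of the log2 difference -0.35 to 0.34), and its paralogue Kmt2c 504 ± 103 in knockout-labelled and 501 ± 50.4 in control libraries (-0.40 to 0.40). Kmt2b, the closest relative of Kmt2a, was at 128 ± 29.8 in knockout-labelled and 156 ± 53.4 in control libraries (-0.93 to 0.45), an interval that includes the fall of Kmt2a. Setd1a and Setd1b stood at log2 fold changes of 0.27 and -0.17 (limma adjusted p = 0.547 and 0.669). Setd1a shares 51.9% of its exon length with the same-strand predicted gene Gm49388, which has no count of its own here. The count of Setd1a is therefore uncertain.

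**Figure D2:**
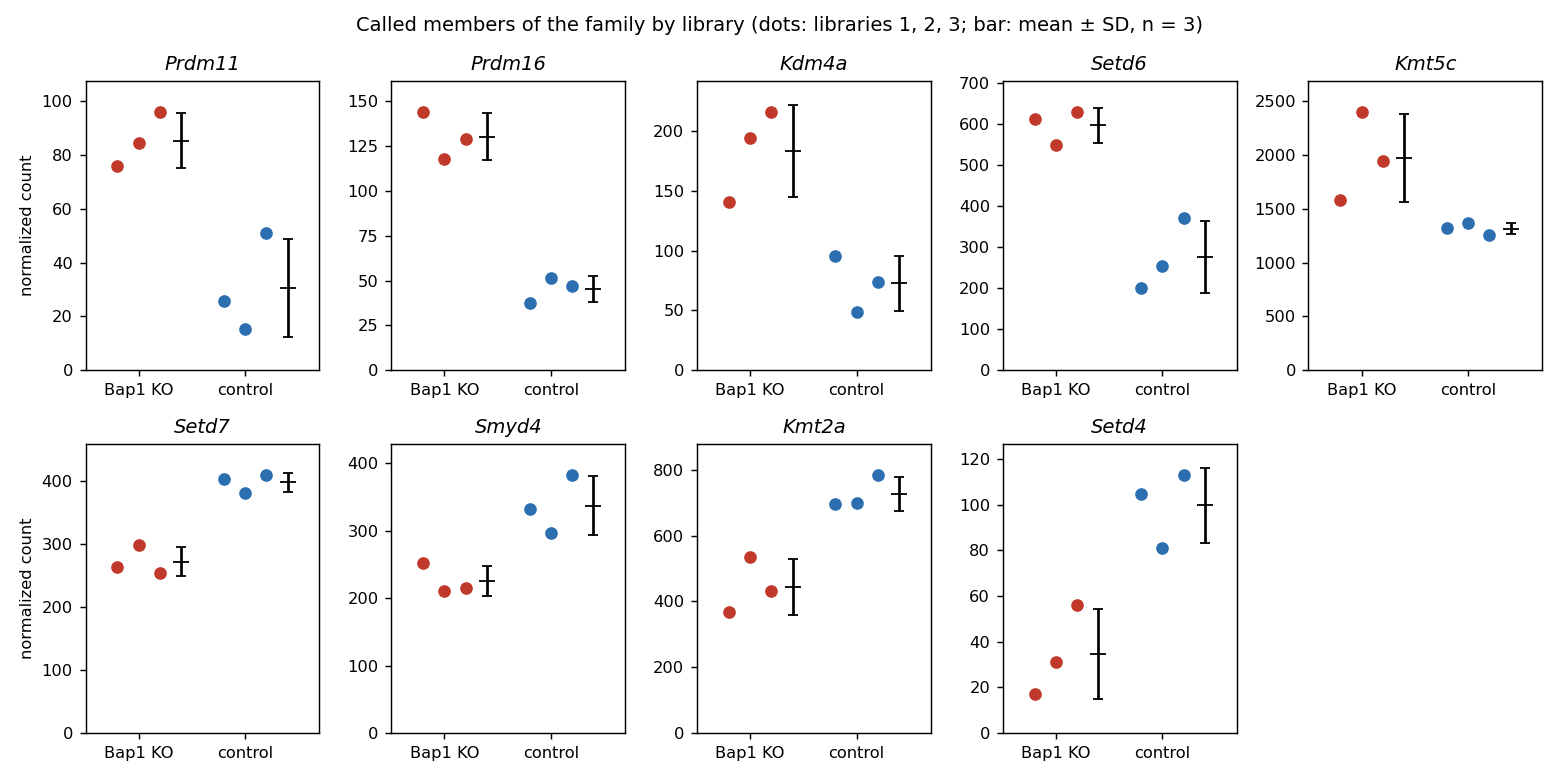
Normalized counts of the 9 called members in each knockout-labelled library (left) and control library (right), with mean ± SD (n = 3 each). In all 9 panels the groups do not overlap.

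The members grouped as writers of H3K9, H3K36 and H3K79 methylation gave no call, while 26.8% of all tested genes were called. PRDM genes were grouped apart, whatever their substrate. The 4 H3K9 enzymes had log2 fold changes of -0.17 to 0.05 (limma adjusted p = 0.422 to 0.757). Suv39h1, at 4550 ± 73.6 normalized counts in knockout-labelled and 4396 ± 98.8 in control libraries, had the narrowest interval of these, -0.17 to 0.27. Ehmt2, which encodes the H3K9 dimethyltransferase G9a, varied more, with 379, 676 and 602 normalized counts in knockout-labelled and 617, 646 and 504 in control libraries. The 5 H3K36 enzymes had log2 fold changes of -0.21 to 0.03 (limma adjusted p = 0.268 to 0.915). Nsd2, an H3K36 dimethyltransferase altered in multiple myeloma, had 1024, 1027 and 1011 normalized counts in knockout-labelled and 1068, 1266 and 1202 in control libraries, groups that did not overlap but did not pass (limma adjusted p = 0.268). Setd2, which trimethylates H3K36 behind RNA polymerase, was at 912 ± 80.7 in knockout-labelled and 898 ± 110 in control libraries (95% interval -0.29 to 0.35). Ash1l, an H3K36 dimethyltransferase of developmental genes, was at 1241 ± 153 in knockout-labelled and 1429 ± 111 in control libraries (-0.51 to 0.09). Nsd1, the H3K36 dimethyltransferase of Sotos syndrome, was at 2201 ± 125 in knockout-labelled and 2266 ± 170.4 in control libraries (-0.30 to 0.22). Dot1l, the H3K79 methyltransferase, was at 235 ± 29.6 in knockout-labelled and 270 ± 24.2 in control libraries (-0.64 to 0.23).

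Of the 3 members grouped as H4K20 methyltransferases, 1 rose, while 11.8% of all tested genes were higher and 15.0% lower. Kmt5c, whose product SUV420H2 trimethylates H4K20 in heterochromatin, had 1581, 2398 and 1942 normalized counts in knockout-labelled libraries, against 1323, 1363 and 1260 in control libraries. All knockout-labelled libraries lay above the control libraries, which were tightly grouped (log2 fold change 0.57, SE 0.15, limma adjusted p = 0.0186). Leaving out control replicate 1, 2 or 3 (limma adjusted p = 0.0516, 0.0536 and 0.0725) or knockout replicate 2 (0.0607) ended the call. Its paralogue Kmt5b averaged 513 ± 29.2 in knockout-labelled and 581 ± 47.0 in control libraries, a log2 fold change of -0.18 (95% interval -0.51 to 0.16) that does not reach the estimate for Kmt5c. Kmt5a, the H4K20 monomethyltransferase of the cell cycle, was at 1690 ± 129 in knockout-labelled and 1450 ± 155 in control libraries (limma adjusted p = 0.23).

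The SETD and SMYD genes outside the groups above had 1 rise and 2 falls among 8 tested members. Over all tested genes, 11.8% were higher and 15.0% lower. Setd6, which monomethylates the NF-kappa-B subunit RelA, had 613, 549 and 630.3 normalized counts in knockout-labelled libraries, against 201, 255 and 373 in control libraries. It was 2.16-fold higher by the means, with no overlap (log2 fold change 1.15, SE 0.22, limma adjusted p = 0.00304). Setd4 had 17.1, 31.2 and 56.0 normalized counts in knockout-labelled libraries, against 105, 81.2 and 113 in control libraries. Its groups did not overlap either, although knockout replicates 1 and 3 stood far apart (log2 fold change -1.63, SE 0.43, limma adjusted p = 0.0167). That call did not hold without control replicate 1 (0.0528) or 3 (0.0662). Smyd4 had 252, 210.3 and 215 normalized counts in knockout-labelled and 332, 297 and 383 in control libraries (log2 fold change -0.58, SE 0.20, limma adjusted p = 0.0477). The value was close to the threshold, and the call ended when control replicate 1, 2 or 3 (0.115, 0.0741 and 0.191) or knockout replicate 2 or 3 (0.105 and 0.0862) was left out, and when all genes with at least 1 read were tested (0.0614). Smyd2 had 1641, 1551 and 1604 normalized counts in knockout-labelled and 1081, 1373 and 1522 in control libraries, and 30.0% of its exon length is shared with the opposite-strand gene Gm37422. Smyd3, which methylates the kinase MAP3K2, had 1056, 1059 and 1104 in knockout-labelled and 1251, 1148 and 1177 in control libraries. The groups did not overlap for Smyd2 or Smyd3, and neither passed the test (limma adjusted p = 0.169 and 0.398). Setd3, the actin histidine methyltransferase, Setd5 and Smyd5 had log2 fold changes of -0.06, -0.04 and -0.22, none called. Smyd1, a muscle gene, had 0 reads in all 6 libraries.

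The PRDM genes, zinc-finger regulators with a SET-related PR domain, had 2 rises and 0 falls among 7 tested members. Over all tested genes, 11.8% were higher and 15.0% lower. Prdm16, a regulator of stem cell maintenance and brown fat, had 144, 118 and 129 normalized counts in knockout-labelled libraries, against 37.3, 51.6 and 47.2 in control libraries. It was 2.87-fold higher by the means with every knockout-labelled library above every control library (log2 fold change 1.51, SE 0.30, limma adjusted p = 0.00358). Mecom, its close relative outside the naming pattern and likewise a stem cell gene, had 0, 8.33 and 11.4 normalized counts in knockout-labelled and 24.9, 10.5 and 29.4 in control libraries (limma adjusted p = 0.13). Prdm11 had 75.7, 84.3 and 95.9 normalized counts in knockout-labelled and 25.8, 15.3 and 50.8 in control libraries, with no overlap (log2 fold change 1.60, SE 0.45, limma adjusted p = 0.0204). Leaving out control replicate 1 (0.0509) or 2 (0.0748) or knockout replicate 2 (0.0593) or 3 (0.0573) ended that call.

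Of the other PRDM genes, Prdm10, Prdm15 and Prdm9 had estimates below 0 with wide intervals. Prdm15 had 82.1, 124 and 191 normalized counts in knockout-labelled and 219, 280.0 and 149 in control libraries (limma adjusted p = 0.126, and 0.0398 when knockout replicate 3 was left out). Prdm10 had 41.6, 61.4 and 56.0 in knockout-labelled and 76.4, 83.1 and 95.4 in control libraries, which did not overlap (adjusted p = 0.136 in limma). Prdm9, the meiotic H3K4 methyltransferase that places recombination sites, was read at 37.3, 17.7 and 29.7 in knockout-labelled and 46.2, 38.2 and 55.3 in control libraries (limma adjusted p = 0.223). Prdm2, the RIZ tumour suppressor, was at 364 ± 9.69 in knockout-labelled and 439 ± 71.4 in control libraries (95% interval -0.65 to 0.13), and Prdm4 at 175.5 ± 23.3 in knockout-labelled and 158 ± 19.3 in control libraries (-0.36 to 0.65). Prdm1, which encodes BLIMP1 of plasma cells, had 0 reads in all 6 libraries. Prdm6, Prdm8, Prdm12, Prdm13 and Prdm14 also had 0 reads, which allows up to 3 reads, or 2.67 to 3.43 normalized counts, per library.

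Of 17 tested demethylase genes, counted with Jmjd6, 1 rose and 0 fell, while 11.8% of all tested genes were higher and 15.0% lower. Kdm4a, which removes methyl groups from trimethylated H3K9 and H3K36, had 141, 194 and 216 normalized counts in knockout-labelled libraries, against 95.1, 48.7 and 74.0 in control libraries. It was 2.53-fold higher by the means without overlap (log2 fold change 1.35, SE 0.31, limma adjusted p = 0.00846). Its paralogues differed from it in their estimates: Kdm4c was at 376 ± 36.2 in knockout-labelled and 377 ± 29.5 in control libraries (95% interval -0.39 to 0.37) and Kdm4b at 116 ± 39.7 in knockout-labelled and 134 ± 29.2 in control libraries (-0.90 to 0.44), intervals that end below the lower bound for Kdm4a of 0.67. Kdm4d had 7.29 normalized counts in knockout replicate 2 and 0.891 in control replicate 3, and none elsewhere.

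**Figure D3:**
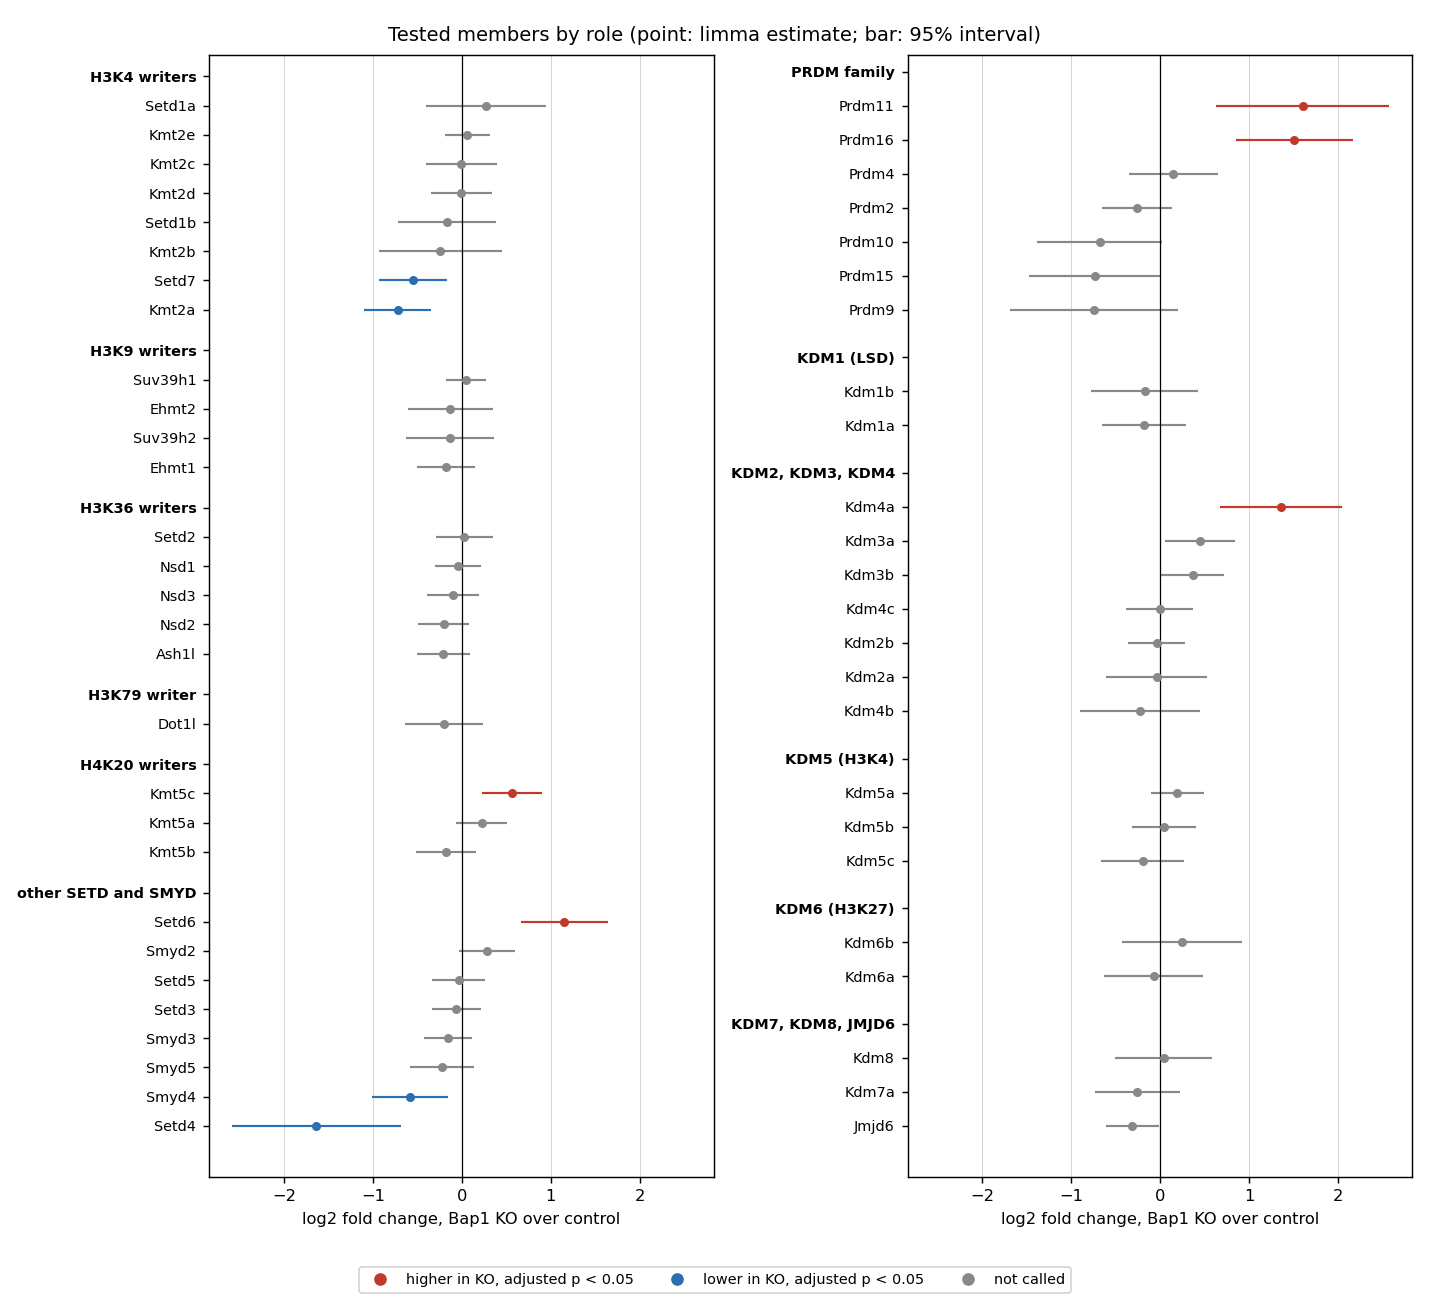
Log2 fold change of knockout-labelled over control libraries for the 53 tested members, by role, with 95% intervals from limma (3 libraries a group). Most points lie near 0, and Kdm4a is the sole called demethylase.

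Among the other erasers, the H3K9 demethylases Kdm3a and Kdm3b did not pass the test. Kdm3a had 685, 464 and 645 normalized counts in knockout-labelled and 426, 420 and 450.1 in control libraries, with no overlap (log2 fold change 0.45, SE 0.18, limma adjusted p = 0.0869). It passed without knockout replicate 2 (0.0232) and with GC content and length corrected for (0.0191). Kdm3b had 553, 645 and 636 in knockout-labelled and 418, 487 and 523 in control libraries, again without overlap (limma adjusted p = 0.118), and shares 24.6% of its exon length with the opposite-strand gene Gm26538. Kdm2a, a CpG island H3K36 demethylase, had 466, 491 and 1025 normalized counts in knockout-labelled and 628, 712 and 574 in control libraries, so that knockout replicate 3 stood far above all others. Kdm2b, its paralogue and a subunit of a variant PRC1 complex, was at 615 ± 48.0 in knockout-labelled and 632 ± 28.7 in control libraries (95% interval -0.36 to 0.28). Kdm1a, which encodes LSD1, was at 256 ± 62.2 in knockout-labelled and 286 ± 9.84 in control libraries (-0.66 to 0.28). Kdm1b, its relative active in oocytes, was at 176 ± 54.6 in knockout-labelled and 196 ± 40.9 in control libraries (-0.78 to 0.42). It shares 9.19% of its exon length with the opposite-strand gene Dek.

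The H3K4 and H3K27 demethylases did not pass. Kdm5a, the most abundant of the KDM5 genes, had 2605, 2092 and 2905 normalized counts in knockout-labelled and 2104, 2269 and 2227 in control libraries (limma adjusted p = 0.328, and 0.0388 with GC content and length corrected for). Kdm5b was at 525 ± 14.6 in knockout-labelled and 514 ± 78.2 in control libraries. Kdm6b, the inducible H3K27 demethylase JMJD3, was at 101 ± 27.1 normalized counts in knockout-labelled and 83.4 ± 11.2 in control libraries (95% interval -0.43 to 0.92). Its antisense transcript Kdm6bos had 0 to 9.14 in knockout-labelled and 0 to 5.35 in control libraries, below the filter. Jmjd6, a lysyl hydroxylase, had 1043, 1085 and 1302 normalized counts in knockout-labelled and 1346, 1384 and 1529 in control libraries, with no overlap but without a call (limma adjusted p = 0.107, and 0.0418 without knockout replicate 3). Kdm7a and Kdm8 had log2 fold changes of -0.26 and 0.04, neither called.

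Among the X-linked members, Kdm5c and Kdm6a were highest where Xist was high, within each group. Kdm5c and Kdm6a, which encode H3K4 and H3K27 demethylases, are known to escape X inactivation, and Xist is the RNA of the inactive X. Xist had 18.1, 90.6 and 3740 normalized counts in knockout-labelled replicates 1, 2 and 3, and 5109, 21.0 and 2.67 in control replicates 1, 2 and 3. Kdm5c had 365, 346 and 513 normalized counts in knockout-labelled and 585, 396 and 420 in control libraries, and Kdm6a had 346, 258 and 423 in knockout-labelled and 493, 269 and 330 in control libraries. In each group the library with high Xist was thus the highest for both genes. The Y-linked partners Kdm5d and Uty, which are not members, had 0 reads in the same pair of libraries. Elsewhere Kdm5d had 162 and 139 normalized counts in knockout-labelled and 196 and 183 in control libraries, and Uty had 569 and 405 in knockout-labelled and 330 and 368 in control libraries. Suv39h1, also X-linked, was at 4466 to 4604 in knockout-labelled and 4283 to 4467 in control libraries. Neither Kdm5c (limma adjusted p = 0.535) nor Kdm6a (0.863) passed between genotypes, each group having 1 such library. Without both of these libraries, the calls over the family numbered 3 higher (Kdm4a, Prdm16 and Setd6) and 2 lower (Kmt2a and Setd4). Calls over all genes fell as well, from 1695 higher and 2163 lower of 14391 tested to 1106 and 1491 of 14328.

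**Figure D4:**
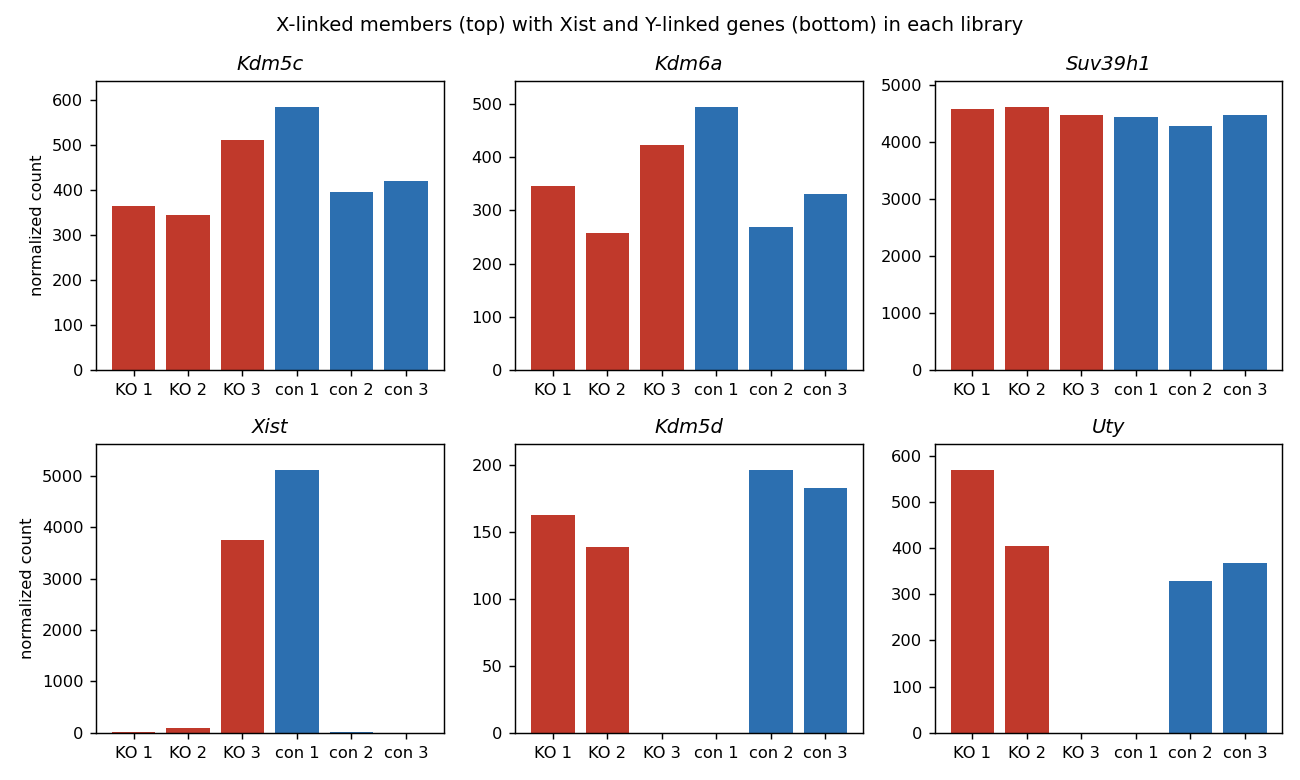
Normalized counts of the X-linked members Kdm5c, Kdm6a and Suv39h1 (top) and of Xist, Kdm5d and Uty (bottom) in the 3 knockout-labelled and 3 control libraries. Kdm5c and Kdm6a are highest in knockout replicate 3 and control replicate 1, the libraries with Xist at 3740 and 5109, where Kdm5d and Uty had 0 reads.

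A wider list of 54 genes covered complex partners, readers and enzymes that the naming pattern misses. Of 53 tested, 4 rose and 7 fell, while 11.8% of all tested genes were higher and 15.0% lower. Among 13 subunits and tethers of the H3K4 methyltransferase (COMPASS) complexes, 1 rose and 2 fell. Men1, menin, which tethers KMT2A and KMT2B to chromatin, had 465, 808 and 638 normalized counts in knockout-labelled libraries, against 1200, 1148 and 1069 in control libraries. It thus fell as Kmt2a did, without overlap (log2 fold change -0.87, SE 0.19, limma adjusted p = 0.00587). Psip1, the LEDGF protein that links menin to chromatin, was at 487 ± 135 in knockout-labelled and 728 ± 130.4 normalized counts in control libraries and did not pass (limma adjusted p = 0.0629). Paxip1 and Pagr1a, whose products join the KMT2C and KMT2D complexes as partners, were called in opposite directions. Paxip1 rose to 546 ± 61.8 in knockout-labelled libraries, against 315 ± 98.8 in control libraries (limma adjusted p = 0.021), and Pagr1a fell to 637 ± 124 in knockout-labelled libraries, against 921 ± 5.37 in control libraries (limma adjusted p = 0.0275). The Paxip1 call ended without control replicate 1 (0.0755) or knockout replicate 2 (0.0803), and that of Pagr1a without control replicate 1, 2 or 3 (0.0772, 0.0857 and 0.0835) or knockout replicate 1 or 3 (0.0596 and 0.0519). The shared core genes Wdr5, Rbbp5, Ash2l and Dpy30 were not called.

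Of 11 LSD1-CoREST genes, 3 rose and 0 fell, while 11.8% of all tested genes were higher and 15.0% lower. Kdm1a itself was not called. Phf21a, which encodes the BHC80 subunit that reads unmethylated H3K4, had 1144, 1346 and 1671 normalized counts in knockout-labelled libraries, against 548, 530.3 and 593 in control libraries. It was 2.49-fold higher with no overlap (log2 fold change 1.30, SE 0.16, limma adjusted p = 0.000195). Gfi1, the repressor that brings LSD1 to its targets in granulocyte development, had 756, 641 and 741 normalized counts in knockout-labelled and 459, 418 and 389 in control libraries (log2 fold change 0.76, SE 0.16, limma adjusted p = 0.00451). Rcor3, a CoREST protein, rose to 471 ± 47.9 in knockout-labelled libraries, against 323 ± 53.9 in control libraries, next to the threshold (limma adjusted p = 0.0495, and 0.0525 in edgeR). Leaving out control replicate 1, 2 or 3 (0.0758, 0.0758 and 0.204) or knockout replicate 2 or 3 (0.123 and 0.101) ended its call.

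Among 9 H3K9 methyl readers and cofactors, 2 fell, while 11.8% of all tested genes were higher and 15.0% lower. Cbx5, the heterochromatin protein HP1 alpha, had 3285, 2736 and 2202 normalized counts in knockout-labelled and 4050, 4435 and 4258 in control libraries (log2 fold change -0.65, limma adjusted p = 0.00668). Mphosph8, the H3K9 methyl reader of the HUSH silencing complex, had 708, 627 and 450 in knockout-labelled and 987, 1011 and 1038 in control libraries (-0.79, limma adjusted p = 0.00659). Neither overlapped between groups, while the other HP1 genes Cbx1 and Cbx3 were not called. Of 9 genes of the DOT1L complex and transcript elongation, 2 fell: Ctr9, the scaffold of the PAF complex, at 920 ± 26.9 in knockout-labelled and 1562 ± 83.9 in control libraries (limma adjusted p = 0.00105), and Mllt3, the acetyl-lysine reader AF9, at 109 ± 12.5 in knockout-labelled and 206 ± 30.3 in control libraries (0.0166). The Mllt3 call ended without control replicate 1 (0.0567) or 3 (0.084). Among 12 enzymes that the naming pattern misses, 11 were tested and Riox2, a JmjC ribosomal oxygenase, was the only call, at 2113 ± 263 in knockout-labelled and 2828 ± 26.2 in control libraries (limma adjusted p = 0.0241). Without control replicate 1, 2 or 3 (0.079, 0.0811 and 0.0857) or knockout replicate 2 or 3 (0.0506 and 0.0528) it did not hold. The PRC2 methyltransferase gene Ezh2 was at 2611 ± 293 in knockout-labelled and 2752 ± 85.2 in control libraries (95% interval -0.34 to 0.18), and Ezh1 at 415.5 ± 76.1 in knockout-labelled and 292.5 ± 31.4 in control libraries, not called (limma adjusted p = 0.0814).

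**Figure D5:**
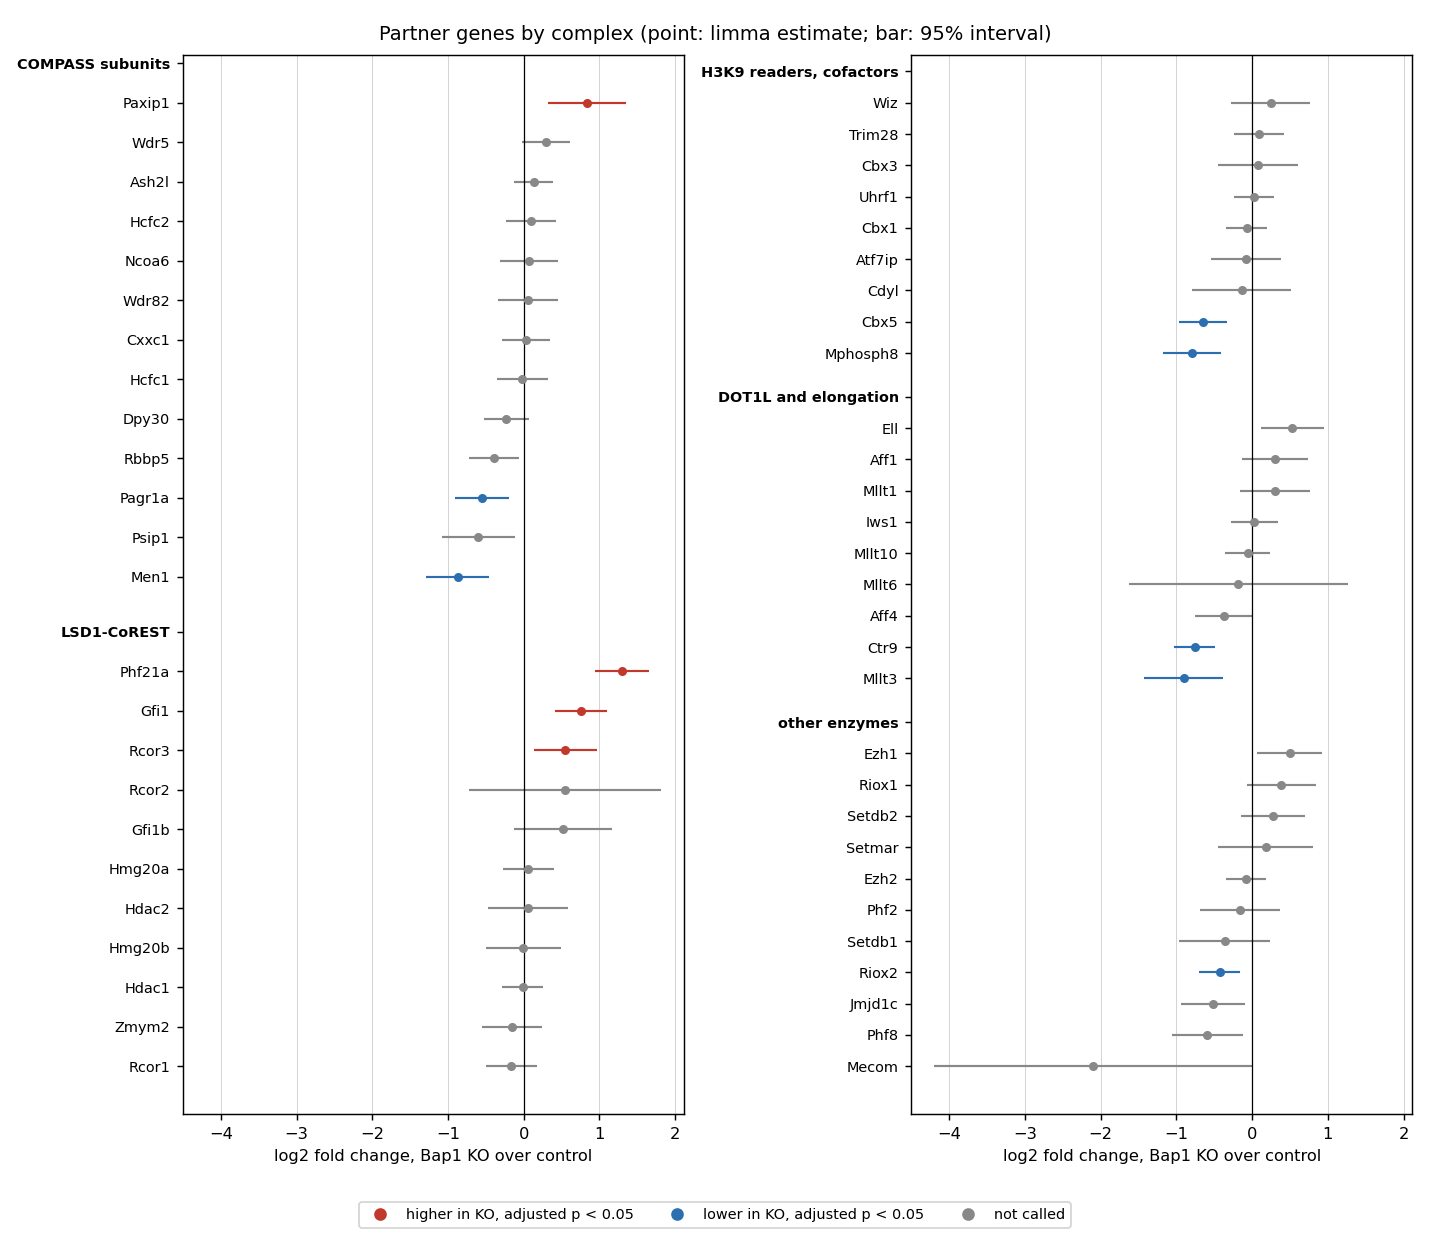
Log2 fold change of knockout-labelled over control libraries for 53 tested partner genes, by complex, with 95% intervals from limma (3 libraries a group). The 3 called LSD1-CoREST genes and Paxip1 lie to the right of 0. Men1, Pagr1a, Cbx5, Mphosph8, Ctr9, Mllt3 and Riox2 lie to the left.

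The called members lay on 8 chromosomes, with Kdm4a and Prdm16 both on chromosome 4. Median GC content of the longest transcript was 53.6% for the 5 members that rose, 50.7% for the 4 that fell and 49.7% for the 44 not called. Median exon length was 5782, 8096 and 8544 bases in the same order. Of the 4 called members that share exon sequence with another annotated gene, none shared more than the 2.27% of Kmt2a. The spread among knockout-labelled libraries exceeded that among control libraries on the log2 scale for 31 of the 53 tested members (58.5%), against 67.9% of all genes tested.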

How the data were processed

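Gene-level RNA-seq values of 6 libraries were used. Per the labels' protocols, low-input RNA was amplified by a SMARTer kit and sequenced as Ion Torrent libraries without molecular identifiers, so floors cover counting error only. Tools named in the submitters' processing notes, without roles, are STAR, BWA 0.7.5a, Picard, HTSeq and DESeq2, with builds mm9 and NCBIM37; whether strand was used in counting is unknown. The deposited signal per gene was the read count divided by the authors' size factor per library: 100% of values above 0 were whole multiples of 1 read (within 0.01 of a read), worth 0.8885 to 1.142. The 5 rows that name no gene (74.8 to 77.1% of listed reads, among them reads aligned to several places) were left out. Symbols (32897 of 37620 IDs), exon lengths and GC content came from GENCODE M21 (GRCm38), another build than the authors', so coordinates are printed only for RefSeq promoters.

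A count test had been planned. Since the values were scaled, the main test was limma 3.58.1 (R 4.3.3) with its trend option on log2(deposited value + 1), 2-sided, group as sole term, Benjamini-Hochberg adjusted over all genes whose mean value reached 10. It was tested on simulated data. Fold changes on this scale understate low genes. edgeR 4.0.16 on the recovered whole reads (1687 genes higher, 2077 lower), DESeq2 1.42.0, other scalings, filters, pseudocounts, a GC and length correction, library weights, a replicate block and leaving out each library were alternatives. Members and lists were chosen with earlier results of these data known. One member is not reported here and is left out of the members' counts. Every other called member and partner is named, and the rest by role. The labels do not tie libraries to separate animals, so p-values measure the spread between libraries, which may be technical.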

Additional observations from a re-analysis of the deposited data

How the results depend on the processing

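Over 18 alternatives, no called gene changed direction, and Kdm4a, Prdm16 and Setd6 kept their calls in all of them, as did 6 of the 11 called partner genes (Men1, Gfi1, Phf21a, Cbx5, Mphosph8 and Ctr9). edgeR and DESeq2 on the recovered reads called the same 9 members. Of the 44 uncalled members, 40 were called in none of the alternatives, and Kdm3a, Kdm5a, Jmjd6 and Prdm15 in at least 1. Leaving out 1 library gave 3 to 5 members higher, 0 to 4 members lower, 2 to 6 partner genes higher and 4 to 9 partner genes lower; the count of 0 (limma) was without control replicate 3, where 4 members were lower at an unadjusted p under 0.05 and no other tool was run. Over all genes, leaving out 1 library gave 1058 to 1796 higher and 1413 to 2354 lower, against 1695 and 2163 in the main fit. Without both libraries with high Xist, an alternative chosen after seeing the data, 3 members were higher and 2 lower. Among partner genes 2 were then higher and 4 lower, and over all genes 1106 were higher and 1491 lower. Same-numbered libraries did not deviate together (r = -0.10, 0.04 and -0.06 across genes), so the numbers are not treated as pairs; with the replicate block, 5 members were higher and 2 lower (Setd7 and Smyd4 were not called, adjusted p = 0.0691 and 0.0742 in limma, nor was the partner gene Rcor3, 0.0722), and with the block and the GC and length correction 7 were higher and 2 lower. The GC and length correction alone gave 7 members higher and 3 lower, and 2020 higher and 2237 lower over all genes. The median log2 fold change of all genes moved by at most 0.03 between settings. With 3 libraries a group, a 1.5-fold difference lay within the 95% interval of low genes such as Kmt2b and Setd1a and was not detectable at this depth and spread.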
